A study of Mus musculus with 4 samples.

Results

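The nuclear genes for the subunits of respiratory complexes II to V were followed in mouse embryonic stem cells after knockdown of Kdm5b, an enzyme that takes methyl groups off histone H3 at lysine 4. The cells were of the WW6 line, of mixed C57/B6J, 129/Sv and SJL origin, grown without feeder cells. The knockdown group (libraries A and B) was transiently transfected with siRNA targeting Kdm5b. The control group (libraries A and B) was transfected with siRNA targeting GFP. The sample labels call these agents constructs where the treatment protocol names siRNA, and neither gives the time from transfection to harvest. The labels do not say that libraries A and B came from separate cultures, so the p-values here rest on a spread between libraries that could be technical.

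A gene was included where its RefSeq identifiers map to 1 symbol that is Sdha to Sdhd or Cyc1, or that starts with Uqcr, Cox4 to Cox8 or Atp5, and where its mean over the 4 libraries was at least 1 FPKM (fragments per kilobase of transcript, scaled for library depth). That gave 44 genes of 23697 loci in the table: 4 of complex II, 9 of complex III, 14 of complex IV and 17 of complex V. The names match 48 rows. Of the other 4, Cox4i2 and Cox8c were listed at 0 in every library, Cox6a2 reached 0.505 FPKM in control B alone and Cox8b reached 2.78 FPKM in control A alone. Cox7b2, with a mean of 1.18 FPKM, lay just inside the level limit and Cox8b, with a mean of 0.695 FPKM, just outside it.

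Complex II (succinate dehydrogenase) passes electrons from succinate to ubiquinone, complex III passes them on to cytochrome c, and complex IV hands them to oxygen. Complex V (ATP synthase) makes ATP with the proton gradient that complexes I, III and IV build up. Complex II is encoded by nuclear genes alone, whereas the other complexes here also hold subunits encoded by mitochondrial DNA, and several complex IV subunits exist as isoforms used in muscle, testis or lung.

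Subunit c, which forms the rotating ring of ATP synthase, is encoded by 3 genes, and their coding sequences are shown because the share of each gene in the libraries is described further on and rests on telling their reads apart. The last 75 codons (225 bases, 5′ to 3′, stop codon left out) are from GENCODE M21 transcripts of the GRCm38 build, from chromosome 11 for Atp5g1, 15 for Atp5g2 and 2 for Atp5g3. Capitals mark the 57 positions at which the 3 genes are not all alike.
Atp5g1: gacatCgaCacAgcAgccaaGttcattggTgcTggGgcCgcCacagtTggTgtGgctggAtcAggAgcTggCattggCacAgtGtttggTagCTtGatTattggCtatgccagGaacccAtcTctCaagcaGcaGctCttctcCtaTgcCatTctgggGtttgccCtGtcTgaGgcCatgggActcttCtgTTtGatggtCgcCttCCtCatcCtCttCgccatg
Atp5g2: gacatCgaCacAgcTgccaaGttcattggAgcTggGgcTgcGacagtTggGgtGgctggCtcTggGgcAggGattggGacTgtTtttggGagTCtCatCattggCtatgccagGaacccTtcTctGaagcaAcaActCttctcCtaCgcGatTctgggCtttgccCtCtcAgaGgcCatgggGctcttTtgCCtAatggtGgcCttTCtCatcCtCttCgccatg
Atp5g3: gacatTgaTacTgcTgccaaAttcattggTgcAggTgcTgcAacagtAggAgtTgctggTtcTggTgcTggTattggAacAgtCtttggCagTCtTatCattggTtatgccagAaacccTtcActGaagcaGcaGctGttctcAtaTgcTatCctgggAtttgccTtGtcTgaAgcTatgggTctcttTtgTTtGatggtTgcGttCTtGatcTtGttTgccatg
No codon of the 75 differed in the amino acid it encodes (0 in each of the 3 pairs), so these stretches encode 1 and the same peptide. Atp5g1 and Atp5g2 differed at 34 bases (84.9% identical), Atp5g1 and Atp5g3 at 45 (80% identical), and Atp5g2 and Atp5g3 at 48 (78.7% identical). The longest run of bases shared by the transcripts of a pair was 21 for Atp5g1 with Atp5g2, 11 for Atp5g1 with Atp5g3 and 9 for Atp5g2 with Atp5g3.

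Upstream sequences are shown for 4 of the 5 genes whose knockdown libraries both lay outside the control range with a log2 fold change of at least 0.5 in size. They are the 250 bases before the annotated start from RefSeq (GRCm38.p6), all on the minus strand and printed 5′ to 3′ along the gene: Uqcrh at chr4:116075071-116075320, Cox7a2 at chr9:79759854-79760103, Atp5k at chr5:108434400-108434649 and Atp5l at chr9:44920743-44920992. Capitals mark the match to an ETS motif (CCGGAAG, here as its reverse complement) in Uqcrh and Atp5l, and the match to an NRF1 motif (GCGCA, any base, then GCGC) in Atp5k.
Uqcrh: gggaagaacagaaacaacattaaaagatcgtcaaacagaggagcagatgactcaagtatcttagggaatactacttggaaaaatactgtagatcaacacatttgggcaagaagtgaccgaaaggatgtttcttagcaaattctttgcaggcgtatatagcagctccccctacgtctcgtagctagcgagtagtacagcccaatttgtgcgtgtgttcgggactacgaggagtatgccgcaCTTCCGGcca
Cox7a2: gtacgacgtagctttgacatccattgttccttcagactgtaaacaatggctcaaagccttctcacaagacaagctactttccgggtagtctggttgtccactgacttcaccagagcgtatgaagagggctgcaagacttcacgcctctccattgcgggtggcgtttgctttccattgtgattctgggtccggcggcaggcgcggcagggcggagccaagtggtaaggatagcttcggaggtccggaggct
Atp5k: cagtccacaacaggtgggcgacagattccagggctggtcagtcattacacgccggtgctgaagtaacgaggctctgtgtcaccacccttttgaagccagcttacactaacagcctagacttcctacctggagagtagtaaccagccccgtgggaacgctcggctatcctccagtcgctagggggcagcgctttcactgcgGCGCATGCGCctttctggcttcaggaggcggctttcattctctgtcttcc
Atp5l: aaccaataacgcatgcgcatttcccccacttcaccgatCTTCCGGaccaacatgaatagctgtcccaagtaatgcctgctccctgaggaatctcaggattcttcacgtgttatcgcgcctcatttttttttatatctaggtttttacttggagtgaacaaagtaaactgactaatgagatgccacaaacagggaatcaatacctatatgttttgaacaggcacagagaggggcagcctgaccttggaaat
The ETS match of Uqcrh ran from base -10 to -4 before the start, that of Atp5l from -212 to -206, and the NRF1 match of Atp5k from -50 to -41. After the start, outside the printed bases, Atp5l held a further ETS match from base 25 to 31. Atp5k held an ETS match there from base 13 to 19. No match stood in the printed bases of Cox7a2, which says only that these letters are not in this window. NRF1 and ETS-family factors such as GABPA are known regulators of nuclear respiratory genes, as is YY1, searched as AANATGGC. Windows of 300 bases (250 before to 50 after the start) were searched on both strands, and 35 of the 44 genes had an entry, in 38 windows. The NRF1 letters stood in 26.3% of those windows, against 4.60% of all 32851 windows. The ETS letters stood in 34.2%, against 8.86% of all windows, and the YY1 letters in 13.2%, against 6.05%. At least 1 of the 3 motifs stood in 60.5% of the windows of these genes, against 17.4% of all windows. The windows of that comparison were not chosen by expression level, so the excess is not shown to be particular to these genes. A match is a description of the letters and not of a bound site.

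Kdm5b itself measured 22.7 and 31.1 FPKM in knockdown A and B, against 99.7 and 145 FPKM in control A and B. The groups did not overlap, and the mean of the knockdown libraries came to 22.0% of that of the controls (log2 fold change -2.14, standard error 0.30). This difference did not pass over all loci either (adjusted p = 0.562 in limma). Steps between the lowest values put the depth of knockdown A at 75.8%, of knockdown B at 98.1% and of control A at 102% of that of control B, and 11953 loci of knockdown A stood at 0, against 8131 to 8609 in the other 3 libraries. Markers of embryonic stem cells were present throughout (10 of 10 found, summed 4800 and 4016 FPKM in knockdown A and B, against 3626 and 4463 FPKM in control A and B). Summed markers of endoderm were 2.59 and 2.98 FPKM in the knockdown libraries, against 11.1 and 15.6 FPKM in the controls. Those of fibroblasts were 0.258 and 1.55 FPKM in the knockdown, against 9.25 and 2.92 FPKM in the controls, and those of trophoblast 29.0 and 42.9 FPKM, against 63.7 and 33.7 FPKM. Acta2 alone gave 6.48 FPKM of the fibroblast sum in control A. In the endoderm sums, Cubn gave 0.272 and 0.338 FPKM in the knockdown, against 4.23 and 7.39 FPKM in the controls. Of the 4 endoderm markers tested, 3 lay below both controls in both knockdown libraries. Gata6 was the exception, with overlapping groups, and gave 2.32 FPKM of the endoderm sum in knockdown A. Trophoblast markers differed in direction. Krt18 measured 3.28 and 12.2 FPKM in the knockdown, against 38.5 and 12.4 FPKM in the controls. Gcm1 lay above both controls, and for Tfap2c the groups overlapped. The part of these markers in the results below was not tested.

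Most of these genes were strongly expressed, with a median level of 175 FPKM against 12.3 FPKM over all 11784 tested loci. The highest of each complex were Sdhb, the iron-sulfur subunit of complex II (mean over the 4 libraries 137 FPKM), Uqcr10, a small subunit of complex III (422 FPKM), Cox4i1, the ubiquitous form of subunit IV of complex IV (811 FPKM), and Atp5b, the catalytic beta subunit of complex V (1301 FPKM). The lowest were Sdha (95.2 FPKM), Uqcrq (30.3 FPKM), Cox7b2 (1.18 FPKM) and Atp5l (6.63 FPKM). Complex II was the most even in level, with its highest gene at 1.44 times its lowest.

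**Figure D1:**
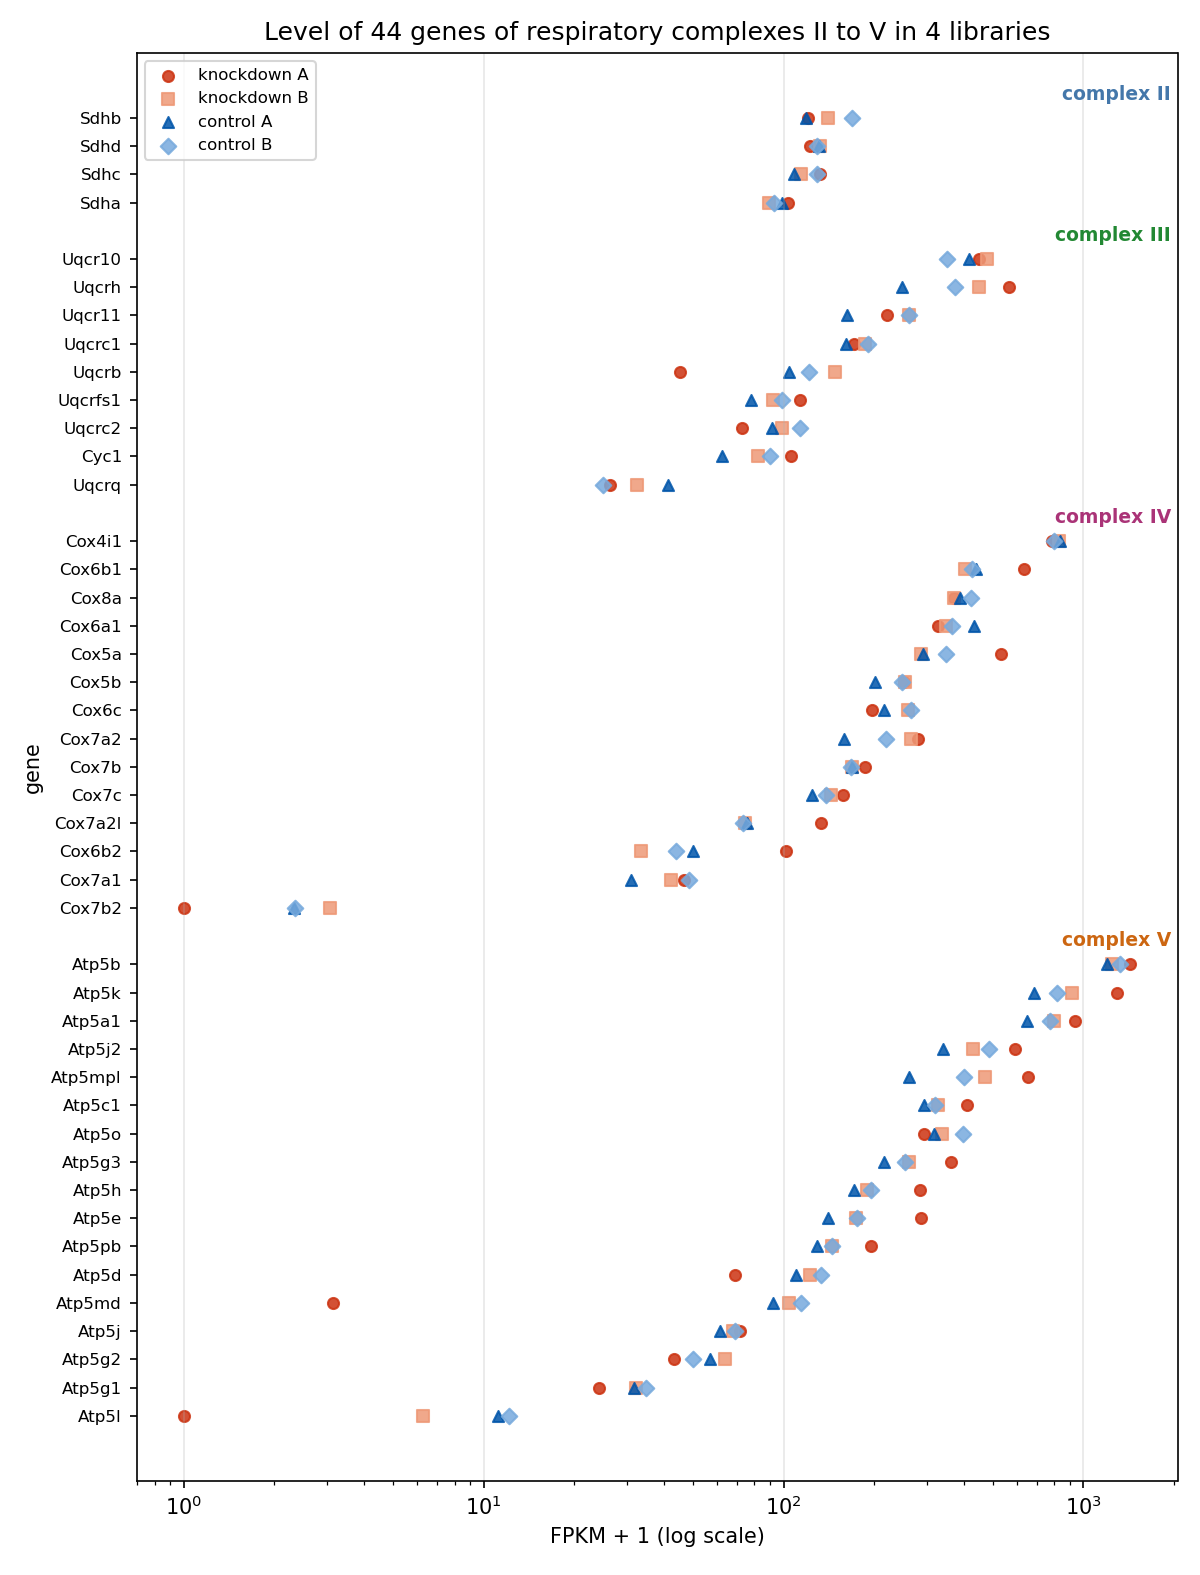
Level of each of the 44 genes in each of the 4 libraries, as FPKM + 1 on a log axis, grouped by complex and ordered by mean level within it. Points of 1 gene mostly lie close together, whereas knockdown A (red circles) stands far to the left for Atp5md, Atp5l, Cox7b2 and Uqcrb.

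No gene of complexes II to V changed past the threshold in knockdown cells. Of the 44 genes 0 were called by limma at a Benjamini-Hochberg adjusted p under 0.05 (adjusted p 0.918 to 0.997), where 4 of 11784 loci were called in all (0.0339%), all lower in knockdown cells. At an unadjusted p under 0.05 limma listed 3 of the 44 genes, Uqcrh and Atp5mpl higher and Atp5l lower, beside 290 loci in all (2.46%). The log2 fold change (knockdown over control, on the log2(FPKM + 1) scale, which understates the change of low genes) was positive for 28 genes and negative for 16. That is 63.6% positive, against 47.1% of all tested loci and 60.6% of the 2357 most highly expressed loci (at least 40.8 FPKM). The median was 0.14, against -0.03 over all tested loci and 0.07 over the most highly expressed.

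The differences were about as small as those of other highly expressed loci. The log2 fold change was smaller than 0.5 in size for 37 of 44 genes (84.1%, background 71.8%), against 86.7% of the most highly expressed loci. The 95% interval from limma lay wholly within 1 log2 unit of 0, a doubling or a halving of FPKM + 1, for 31 of 44 genes (70.5%). The background was 32.8% of all tested loci and 67.7% of the most highly expressed. Both knockdown libraries lay above both controls for 10 genes (22.7%, background 15%) and below both for 3 (6.82%, background 16.9%), and the groups overlapped for 31. Among the most highly expressed loci 17.6% lay above both controls and 12.1% below both. Where levels differ, fewer cells of a type and less RNA per cell cannot be told apart in such bulk libraries.

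**Figure D2:**
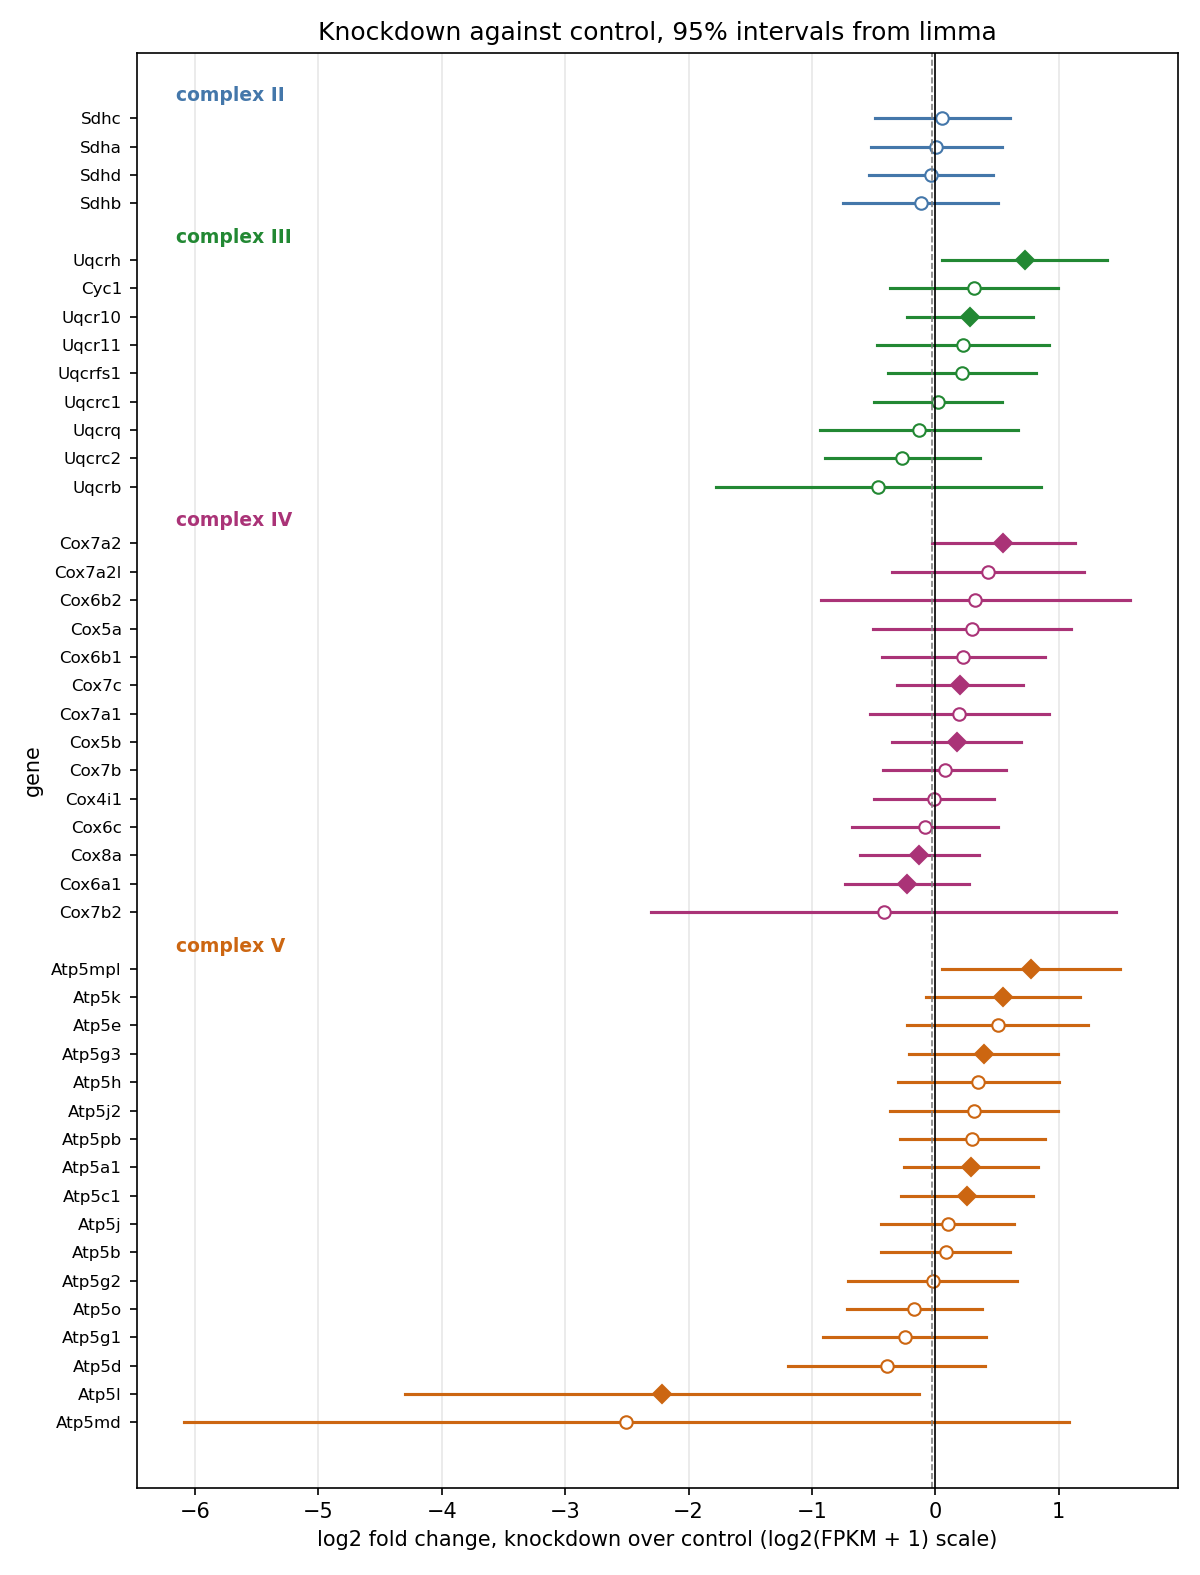
Log2 fold change (knockdown over control, log2(FPKM + 1) scale) of each of the 44 genes with its 95% interval from limma. Filled diamonds mark genes whose groups do not overlap, open circles those that do, and the dashed grey line is the median of all tested loci (-0.03); only the intervals of Uqcrh, Atp5mpl and Atp5l leave out 0, and none of the 44 passed after adjustment.

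In complex II, all 4 genes were close to level. Sdha, the flavoprotein that oxidises succinate, measured 102 and 88.6 FPKM in knockdown A and B, against 97.8 and 91.8 FPKM in control A and B. Sdhb measured 120 and 140 FPKM in the knockdown, against 118 and 168 FPKM in the controls. The groups overlapped for both genes. Sdhc and Sdhd, which anchor the complex in the membrane, measured 132 and 113 FPKM and 122 and 131 FPKM in the knockdown, against 108 and 128 FPKM and 131 and 129 FPKM in the controls. The log2 fold changes of the 4 genes ran from -0.12 (Sdhb, standard error 0.26) to 0.06 (Sdhc, standard error 0.22), and all 4 intervals lay within 1 log2 unit of 0.

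In complex III, the groups overlapped for the core and the electron-carrying subunits. Uqcrc1, a core subunit, measured 170 and 186 FPKM in knockdown A and B, against 161 and 191 FPKM in control A and B. The other core subunit, Uqcrc2, measured 71.9 and 97.6 FPKM in the knockdown, against 90.5 and 113 FPKM in the controls. Cyc1, cytochrome c1, measured 105 and 81.2 FPKM in the knockdown, against 61.2 and 89.3 FPKM in the controls. Uqcrfs1, the Rieske iron-sulfur protein, measured 112 and 91.1 FPKM in the knockdown, against 77.1 and 98.0 FPKM in the controls.

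Uqcrh, the hinge protein of complex III, measured 565 and 447 FPKM in knockdown A and B, against 248 and 373 FPKM in control A and B. Both knockdown libraries lay above both controls. Its mean was 506 ± 83.0 FPKM in the knockdown and 310 ± 88.6 FPKM in the controls (SD, n = 2 each), and its log2 fold change of 0.72 (standard error 0.27) did not pass in limma (adjusted p = 0.918). It was 0.43 without control A and 1.02 without control B. The reference lists 2 pseudogenes of Uqcrh. Uqcr10 measured 448 and 476 FPKM in the knockdown, against 414 and 349 FPKM in the controls, again without overlap, with a log2 fold change of 0.28 (standard error 0.21).

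Uqcrb, a small subunit with a part in ubiquinone binding, had the lowest log2 fold change of complex III, -0.46 (standard error 0.54). It measured 44.0 and 148 FPKM in knockdown A and B, against 103 and 121 FPKM in control A and B. The knockdown libraries were the lowest and the highest of the 4, so the sign rests on knockdown A. Without knockdown A the value was 0.40 and without knockdown B it was -1.33. Uqcrq, another small subunit, measured 25.3 and 31.5 FPKM in the knockdown, against 40.2 and 24.1 FPKM in the controls, and the groups overlapped.

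In complex IV, Cox4i1 was the most even of the 14 genes, with 788 and 829 FPKM in knockdown A and B, against 832 and 795 FPKM in control A and B. Its log2 fold change was -0.01 (standard error 0.20) and its 95% interval ran from -0.49 to 0.48. The other form of that subunit, Cox4i2, known from lung, was listed at 0 in all 4 libraries. Cox6a1 measured 328 and 347 FPKM in the knockdown, against 430 and 365 FPKM in the controls. Cox8a measured 369 and 368 FPKM in the knockdown, against 387 and 421 FPKM in the controls. For both, the knockdown libraries lay below the controls, with log2 fold changes of -0.23 (standard error 0.21) and -0.13 (standard error 0.20).

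Cox7a2, the widely expressed form of subunit VIIa, had the highest log2 fold change of complex IV. It measured 280 and 266 FPKM in knockdown A and B, against 158 and 218 FPKM in control A and B, without overlap. Its means were 273 ± 10.1 FPKM in the knockdown and 188 ± 42.6 FPKM in the controls (SD, n = 2 each), with a log2 fold change of 0.55 (standard error 0.24, adjusted p = 0.918 in limma), 0.32 without control A and 0.78 without control B. Cox7a2l, a related protein that takes part in joining complexes III and IV into supercomplexes, measured 132 and 73.5 FPKM in the knockdown, against 74.3 and 72.1 FPKM in the controls. Only knockdown A stood above the other 3 libraries. The same held for Cox5a, an early subunit in the assembly of complex IV, with 531 and 287 FPKM in the knockdown against 291 and 348 FPKM in the controls, and for Cox6b1, with 634 and 403 FPKM against 437 and 426 FPKM.

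Isoforms of complex IV known from other tissues were also measured. Cox6b2, known as the testis form of subunit VIb, measured 101 and 32.5 FPKM in knockdown A and B, against 48.8 and 42.8 FPKM in control A and B. The knockdown libraries were the highest and the lowest of the 4. It made up 13.8% and 7.48% of the summed Cox6b FPKM in knockdown A and B, against 10.0% and 9.14% in control A and B. Cox7a1, known as the heart and skeletal muscle form of subunit VIIa, measured 45.6 and 41.2 FPKM in the knockdown, against 30.1 and 47.6 FPKM in the controls. It made up 9.96% and 10.8% of the summed FPKM of Cox7a1, Cox7a2 and Cox7a2l in the knockdown, against 11.4% and 14.1% in the controls. Cox7b2, a testis form of subunit VIIb, was listed at 0 FPKM in knockdown A and 2.06 FPKM in knockdown B, against 1.32 and 1.35 FPKM in control A and B, or about 2 to 3 estimated fragments where it was above 0. The log2 fold change of Cox7b2, -0.42 (standard error 0.77), was the lowest of complex IV. Its paralog Cox7b measured 186 and 168 FPKM in the knockdown, against 169 and 168 FPKM in the controls. Testis markers summed to 0 and 0.636 FPKM in the knockdown, against 0.253 and 0 FPKM in the controls, with Prm1 and Tnp1 at 0 throughout. Heart and skeletal muscle markers summed to 0 and 1.21 FPKM in the knockdown, against 1.78 and 0.955 FPKM in the controls, with Tnnt2 at 0 throughout.

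In complex V, the catalytic head was highest in knockdown A and lowest in control A. Atp5b measured 1432 and 1245 FPKM in knockdown A and B, against 1197 and 1328 FPKM in control A and B, and the groups overlapped. It shares its interval with Mir677, listed at 18082 and 7559 FPKM in the knockdown and 5243 and 7964 FPKM in the controls. Atp5a1, the alpha subunit, measured 940 and 795 FPKM in the knockdown, against 647 and 775 FPKM in the controls, without overlap, with a log2 fold change of 0.29 (standard error 0.22). Atp5c1, the gamma subunit of the central stalk, was likewise above both controls (log2 fold change 0.25, standard error 0.22). The other stalk subunits differed in sign. Atp5e, the epsilon subunit, measured 286 and 173 FPKM in the knockdown, against 140 and 175 FPKM in the controls. Atp5d, the delta subunit, measured 67.9 and 122 FPKM in the knockdown, against 109 and 133 FPKM in the controls, and for both genes the groups overlapped.

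The 2 highest fold changes of complex V belonged to small subunits of its membrane part. Atp5mpl, the 6.8-kDa proteolipid (locus chr12:113199586-113205188, mm9), measured 654 and 470 FPKM in knockdown A and B, against 261 and 400 FPKM in control A and B. Atp5k, subunit e (locus chr5:108862271-108863397, mm9), measured 1297 and 915 FPKM in the knockdown, against 682 and 817 FPKM in the controls. For both genes the knockdown libraries lay above both controls. The means were 562 ± 130 and 330 ± 97.9 FPKM for Atp5mpl and 1106 ± 270 and 749.6 ± 95.2 FPKM for Atp5k in the knockdown and the controls (SD, n = 2 each). The log2 fold changes were 0.78 (standard error 0.30) and 0.54 (standard error 0.26), each with an adjusted p of 0.918 in limma. With 1 library left out they ran from 0.47 without control A to 1.08 without control B for Atp5mpl, and from 0.29 without knockdown A to 0.80 without knockdown B for Atp5k. The transcripts are 366 and 371 bases long, and the reference lists 4 pseudogenes of Atp5k, whose reads the authors' counting could have split.

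Atp5l, subunit g of the same membrane part (locus chr9:44721330-44728825, mm9), was listed at 0 in knockdown A and measured 5.27 FPKM in knockdown B, against 10.1 and 11.1 FPKM in control A and B. Both knockdown libraries lay below both controls. These values stand for about 0, 8.02, 16.0 and 17.3 fragments. The log2 fold change was -2.21 (standard error 0.85, adjusted p = 0.918 in limma), -0.89 without knockdown A and -3.54 without knockdown B. Without knockdown B, Atp5l and Atp5md were called lower by limma, as 2 of the 44 genes, beside 134 loci in all (1.14%) and 119 lower ones (1.01%), a fit in which knockdown A has no replicate. Subunits e and g sit side by side in the enzyme, and Atp5l had the lowest and Atp5k the second highest level of the 17 genes. The reference lists 3 pseudogenes with names that start with Atp5l, namely Atp5l-ps1, Atp5l-ps2 and Atp5l2-ps, the last named after Atp5l2.

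Atp5md, the DAPIT subunit that is known to help ATP synthase dimers hold together (locus chr19:47142237-47165115, mm9), had the lowest log2 fold change of all 44 genes, -2.50 (standard error 1.47). It measured 2.14 and 103 FPKM in knockdown A and B, against 91.3 and 113 FPKM in control A and B. Knockdown A alone stood apart and knockdown B lay between the controls, so that the log2 fold change was 0.02 without knockdown A and -5.03 without knockdown B. The transcript is 362 bases long and the values stand for about 1.26 and 78.5 fragments in the knockdown and 71.9 and 87.7 in the controls. Atp5md shares its interval with Taf5, which measured 40.8 and 23.6 FPKM in the knockdown, against 12.9 and 22.5 FPKM in the controls.

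Of the 3 genes of subunit c, Atp5g3 was the highest in every library. It measured 361 and 261 FPKM in knockdown A and B, against 215 and 254 FPKM in control A and B, without overlap, with a log2 fold change of 0.39 (standard error 0.25), 0.16 without knockdown A and 0.63 without knockdown B. Atp5g2 measured 42.0 and 62.7 FPKM in the knockdown, against 55.8 and 48.8 FPKM in the controls. Atp5g1 measured 23.3 and 31.2 FPKM in the knockdown, against 30.7 and 33.8 FPKM in the controls, and the groups overlapped for both. Atp5g3 made up 84.7% and 73.5% of the summed FPKM of the 3 genes in knockdown A and B, against 71.3% and 75.5% in control A and B. Its mean share was 79.1% ± 7.90 in the knockdown and 73.4% ± 2.95 in the controls (SD, n = 2 each), and the share of knockdown B lay between those of the controls. The known transcripts of Atp5g1 run from 596 to 4715 bases. Its FPKM, and so the shares, may depend on how fragments were divided among them.

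**Figure D3:**
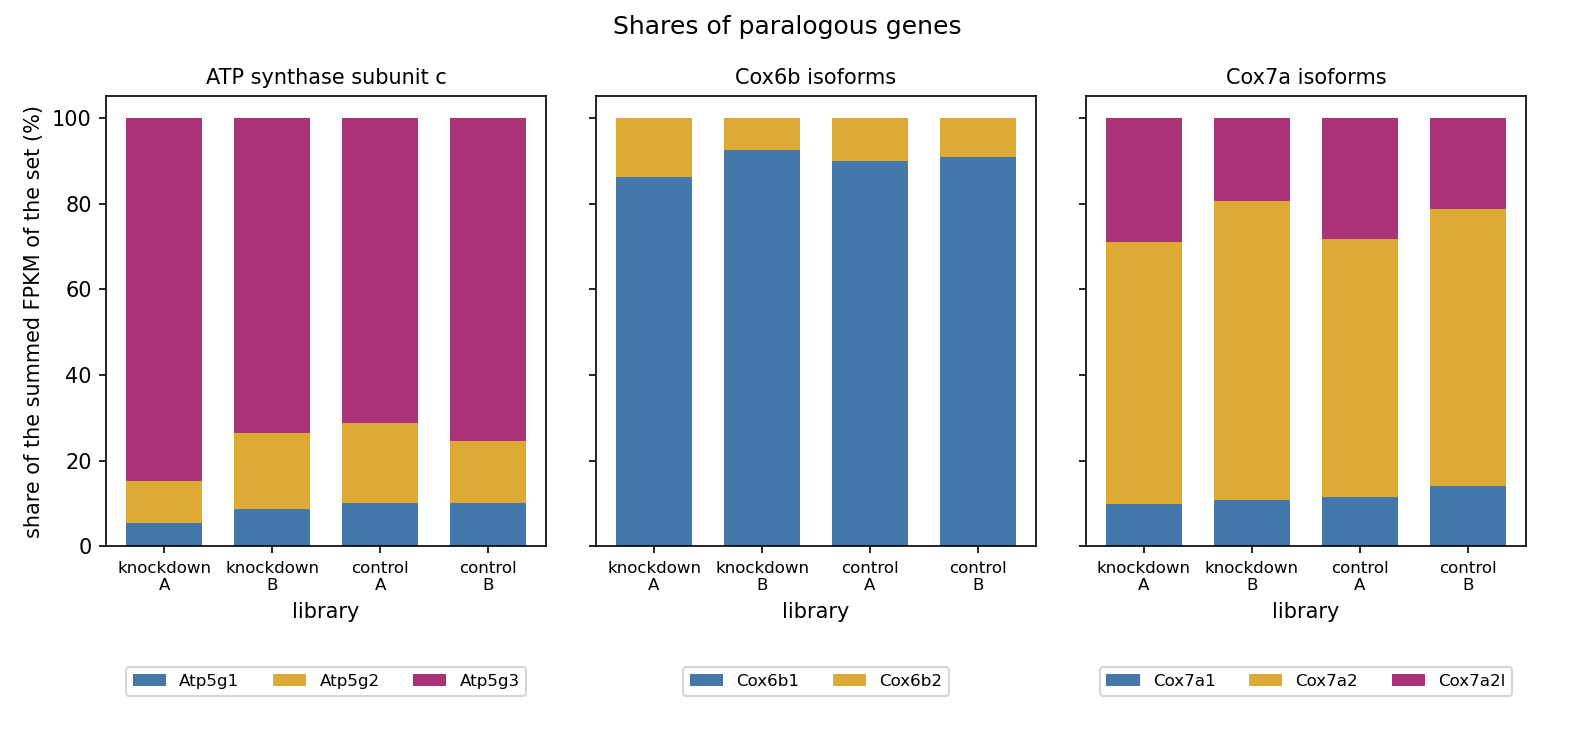
Share of each paralog in the summed FPKM of its set (%), for the 3 genes of ATP synthase subunit c, the 2 genes of Cox6b and the 3 genes of the Cox7a set, in each of the 4 libraries. Atp5g3 makes up 71.3% to 84.7% of subunit c, and knockdown A has the highest share of Atp5g3 and of Cox6b2.

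The 2 libraries of a group also differed from each other. The median log2 ratio of knockdown A over knockdown B was 0.11 over the 44 genes (all tested loci -0.04), with a range from -5.05 for Atp5md to 1.61 for Cox6b2. The median log2 ratio of control A over control B was -0.23 (all tested loci 0.02), with a range from -0.69 for Uqcr11 to 0.72 for Uqcrq. At least a 2-fold difference in FPKM + 1 separated the knockdown libraries for 5 genes (11.4%, background 21.7%) and the control libraries for 0 (background 7.2%). Among the most highly expressed loci these shares were 5.64% and 5.56%.

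Control A lay below control B for 33 of the 44 genes (75%, background 48.3%) and was the lowest of the 4 libraries for 22 (50%, background 26.3%). Among the most highly expressed loci these shares were 64.0% and 45.9%. In complex V, control A was below control B for 16 of 17 genes. Knockdown A was the highest library for 23 genes (52.3%, background 33.2%) and the lowest for 13 (29.5%, background 39.2%). Among the most highly expressed loci it was the highest for 39.6% and the lowest for 23.9%. The FPKM of the 44 genes summed to 13187 and 11440 in knockdown A and B, against 9954 and 11382 in control A and B, and the sum of knockdown B differed little from that of control B.

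**Figure D4:**
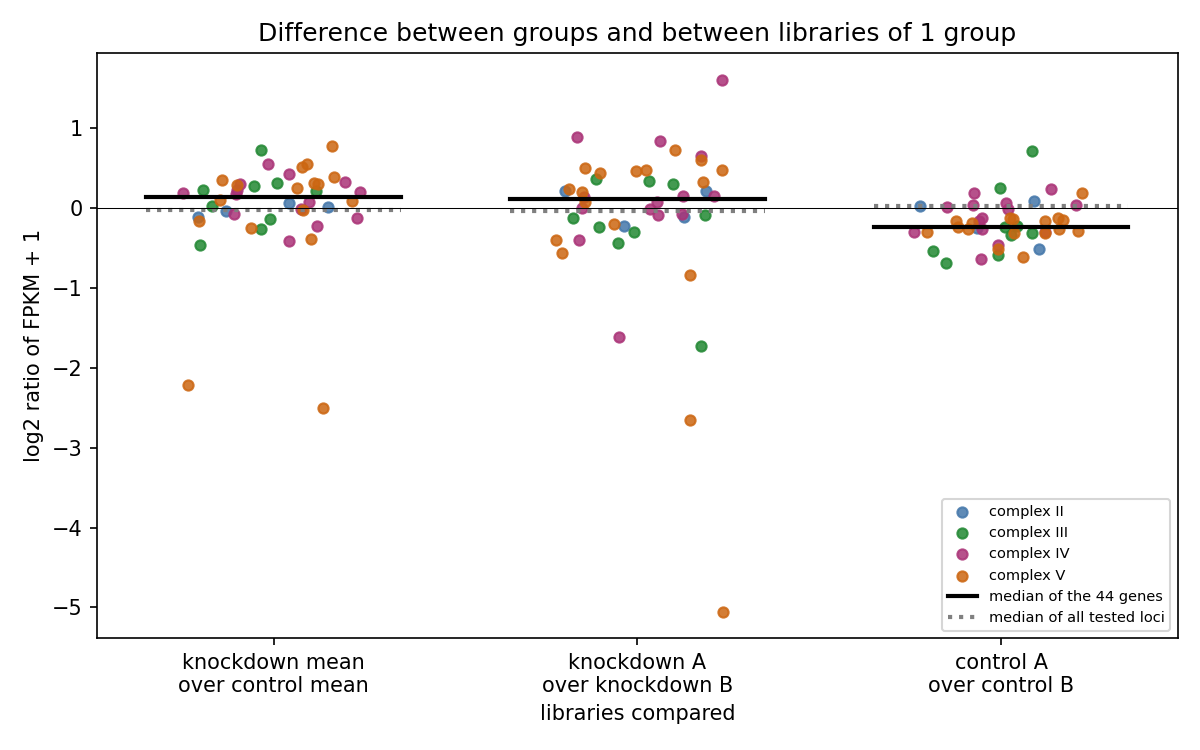
Log2 ratios of FPKM + 1 of the 44 genes between the group means, between the 2 knockdown libraries and between the 2 control libraries, coloured by complex, with the median of the 44 genes (solid line) and of all tested loci (dotted line). The median was 0.14 between groups and -0.23 between the controls. The first compares means of 2 libraries, the second single libraries, and control A enters both, so their sizes are not directly comparable.

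By complex, the median log2 fold change was -0.01 for complex II, 0.22 for complex III, 0.18 for complex IV and 0.25 for complex V. Without control A these medians were -0.05, 0.05, 0.05 and 0.07. The summed FPKM of complex V was 6950 and 5675 in knockdown A and B, against 4746 and 5692 in control A and B, and that of complex IV 3999 and 3473, against 3396 and 3555. Knockdown B lay between the controls in both sums. Complex III summed to 1763 and 1819 FPKM in the knockdown, against 1357 and 1619 FPKM in the controls, without overlap, and complex II to 475 and 474 FPKM, against 454 and 517 FPKM.

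By transcript length, no single order held. Of the 40 genes with 1 known length, those of up to 600 bases had a median log2 fold change of 0.19, those of 600 to 1200 bases 0.14 and longer ones 0.06. The share of positive values ran the other way, at 53.3% (8 of 15), 64.3% (9 of 14) and 72.7% (8 of 11). The shortest class held the lowest 2 genes, Atp5md and Atp5l. Over all loci of at least 50 FPKM the medians in these classes were 0.20, 0.13 and 0.06, and the positive shares 62.7%, 67.0% and 61.2%. The limit of 50 FPKM was not set on the genes of complexes II to V. Cox7b2, Atp5l and Cox7a1 in the shortest class and Uqcrq in the longest lay under it. The part of transcript length in the results was not tested.

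Genes that assemble complexes II to V, with cytochrome c, gave no call either. Of 42 listed genes 40 were found and 39 tested, and 0 were called by limma, with 1 at an unadjusted p under 0.05 (Sdhaf3), 17 positive and 22 negative, and a median log2 fold change of -0.04. Sdhaf3, an assembly factor of complex II, measured 61.5 and 16.2 FPKM in knockdown A and B, against 7.77 and 13.3 FPKM in control A and B (log2 fold change 1.55, standard error 0.63, adjusted p = 0.918 in limma). Both knockdown libraries lay above both controls. The next highest were Lyrm7, of complex III, at 1.41 (standard error 0.75) and Sdhaf4, of complex II, at 1.00 (standard error 0.47). Knockdown A was the highest library for all 3, and without it Sdhaf3 was at 0.62, Lyrm7 at 0.47 and Sdhaf4 at 0.35. The lowest were Coa6 and Cox20, which serve complex IV, at -1.88 and -1.66 (standard errors 1.30 and 1.00), and Tmem70, of complex V, at -1.50 (standard error 1.00). Coa6 measured 0 and 19.2 FPKM in knockdown A and B, against 11.7 and 20.6 FPKM in control A and B. Cox20 measured 2.45 and 34.2 FPKM in the knockdown, against 32.0 and 35.6 FPKM in the controls, and Tmem70 0 and 7.69 FPKM, against 9.32 and 5.76 FPKM. In all 3, as in Atp5md, knockdown A alone was low.

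Regulators of nuclear respiratory genes and of mitochondrial transcription gave no call. Of 16 listed 15 were tested, and 0 were called by limma, with 0 at an unadjusted p under 0.05, 7 positive and 8 negative, and a median log2 fold change of -0.03. Ppargc1a, the coactivator PGC-1alpha, was listed at 0 in all 4 libraries. Nrf1 measured 33.1 and 32.2 FPKM in knockdown A and B, against 38.8 and 33.0 FPKM in control A and B. Gabpa measured 56.5 and 47.8 FPKM in the knockdown, against 45.0 and 65.7 FPKM in the controls, and shares its interval with Atp5j. The highest log2 fold changes were 0.60 for Tfb2m and 0.40 for Creb1 and Tfb1m (standard errors 0.48, 0.29 and 0.30). The lowest were -0.43 for Pprc1, -0.40 for Tfam, which packages mitochondrial DNA, and -0.18 for Ppargc1b (standard errors 0.40, 0.28 and 0.67). Both knockdown libraries lay above both controls for 4 of the 15, Tfb2m, Creb1, Tfb1m and Sp1 (background 15%). Only Tfam lay below both (background 16.9%). It measured 19.0 and 19.6 FPKM in the knockdown, against 22.2 and 29.9 FPKM in the controls. The groups overlapped for Pprc1 and Ppargc1b.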

How the data were processed

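RNA was measured in 4 libraries, 2 from knockdown and 2 from control cells. Per the labels' protocols, Trizol RNA was rRNA-depleted, primed with oligo-dT and random hexamers, and made into directional libraries from 300 bp fragments. The authors deposited FPKM per locus and library. Per the submitters' processing notes, Cufflinks, Cuffdiff and the mm9 build were used. The sources used here give no versions, aligner or strand setting. Overlapping genes may therefore share fragments (5 of the 44 share an interval), and a value of exactly 0 may be an estimate that failed. FPKM is unstable for transcripts near the fragment length.

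Names came from RefSeq identifiers in a GRCm38.p6 table. Loci averaging 1 FPKM or more (11784) were fitted on log2(FPKM + 1) with limma 3.58.1 in R 4.3.3 (group alone, eBayes with trend), with Benjamini-Hochberg adjustment over all of them, two-sided. Fragments were estimated from steps between low values, of which 81.8% to 83.1% lay within 0.15 of a whole number. The scale and a length offset of 180 bases were set on transcripts of 1200 to 5000 bases to give the best such agreement. Estimates for shorter transcripts, such as Atp5md, Atp5l and Cox7b2, are therefore rough. The estimates cover no counting interval. Python 3.11.15, pandas 2.3.3 and matplotlib 3.10.9 made tables and figures.

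The genes and lists were chosen with earlier results of these data known. Full values are given for the highest and lowest genes of each complex by level and by fold change, for genes with a log2 fold change of at least 0.5 in size whose groups do not overlap, and for paralog sets. The 3 highest and lowest of each other list are named. Nrf1, Gabpa and other genes outside this rule were named after their values were seen. Alternatives were a filter at 5 FPKM or none, pseudocounts of 0.1 and 0.01, the replicate letter as a block, robust eBayes, eBayes without trend, quantile normalization, upper-quartile scaling, and leaving out each library or the small noncoding RNA genes. The deviations of libraries with the same letter from their group means had a correlation of -0.07 over 11784 loci. With 2 libraries a group, this value cannot tell whether the letters pair libraries across groups.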

Additional observations from a re-analysis of the deposited data

How the results depend on the processing

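No gene of complexes II to V was called by limma (0 of 44) under any of the 10 alternatives that keep all 4 libraries, the replicate block included. With the replicate block 7 loci were called in all, against 4 without it, and the labels do not tie the letters A and B across groups. No filter gave 1 locus, leaving out small noncoding RNA genes 1 and eBayes without trend 2. Leaving out 1 library at a time gave 0 to 134 loci and 0 to 2 of the 44 genes. The 134 (1.14%) and the 2, Atp5md and Atp5l, came without knockdown B, where knockdown A alone is assumed to vary like the controls. The median log2 fold change kept its sign over the 44 genes (0.046 to 0.18 with a library left out), complex III (0.046 to 0.16), complex IV (0.017 to 0.22) and complex V (0.072 to 0.41), but not over complex II (-0.046 to 0.048). The excess of the Atp5g3 share in knockdown over control cells, 5.71 percentage points, ran from 0.123 to 11.3.

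Of 439 gene values under the alternatives that keep all libraries 6 turned sign, all near 0 or at low level. With quantile normalization Sdhc was -0.0048, Sdha -0.031, Cox7b2 0.21, Cox4i1 0.040, Uqcrc1 -0.0090 and the regulator Ppargc1b 0.15, and with upper-quartile scaling Sdha was -0.0083. With a library left out, 19 of the 44 genes turned sign and 25 did not. Their log2 fold changes ran from -0.067 to 0.18 for Sdhc, -0.096 to 0.11 for Sdha, -0.37 to 0.13 for Sdhb, -0.093 to 0.019 for Sdhd, -0.12 to 0.57 for Uqcr11, -0.49 to 0.22 for Uqcrq, -1.33 to 0.40 for Uqcrb and -0.10 to 0.14 for Uqcrc1. They ran from -0.28 to 0.12 for Cox6c, -1.22 to 0.39 for Cox7b2, -0.13 to 0.51 for Cox7a1, -0.48 to 1.13 for Cox6b2, -0.099 to 0.55 for Cox6b1, -0.045 to 0.028 for Cox4i1 and -0.15 to 0.74 for Cox5a. In complex V they ran from -0.81 to 0.023 for Atp5d, -0.018 to 0.18 for Atp5b, -0.31 to 0.26 for Atp5g2 and -5.03 to 0.022 for Atp5md. Outside the 44 genes the ranges were -4.05 to 0.29 for Coa6, -3.33 to 0.020 for Cox20, -3.06 to 0.057 for Tmem70, -0.90 to 0.035 for Pprc1 and -0.69 to 0.32 for Ppargc1b. The cause was not tested. With 2 libraries a group, 1 of them shallower, small changes were not detectable. The intervals given are not adjusted for the number of loci, so they do not mark the limit of what could be called. Those of Uqcrh, Atp5mpl and Atp5l left out 0, yet each gene had an adjusted p of 0.918 in limma. Kdm5b, at -2.14 with an interval from -2.86 to -1.42, was not called either (adjusted p = 0.562 in limma).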
